A study of Mus musculus with 21 samples.

Results

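A set of 10 genes, listed as organelle clearance and late erythroid genes, was followed through sorted mouse spleen cells. Bnip3l, Map1lc3b, Ulk1 and Foxo3 belong to the machinery by which a maturing red cell removes its mitochondria and other organelles. Car1, Car2, Bpgm, Aqp1, Hemgn and Btnl10 are further genes of the erythroid line, and their stage of expression was not tested here. They were taken by symbol from the deposited table, which lists 14273 genes, and all 10 were present with a value in every one of 21 libraries. The libraries formed 7 groups of 3, all from C57BL/6 mice and all labelled as spleen. Ter119+CD71+ cells that also carried CD45 were sorted in 3 states, named tumor-bearing, anemia and neonatal, and Ter119+CD71+ cells without CD45 were sorted in the same 3 states. The last group was MDSC, CD11b+Gr1+ myeloid-derived suppressor cells of tumor-bearing mice. Ter119 marks erythroid cells, CD71 is the transferrin receptor, and CD45 is a leukocyte phosphatase that erythroid precursors lose as they mature. The labels give neither the tumor, nor the cause of the anemia, nor any age beyond neonatal, and separate animals are not stated for the 3 libraries of a group, so the spread behind each p-value may be technical.

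A red cell precursor fills with haemoglobin, expels its nucleus and then, as a reticulocyte, destroys its remaining organelles. Mitochondria are enclosed in autophagosomes that fuse with lysosomes. In mice, Bnip3l, also called NIX, is the mitochondrial outer membrane receptor that marks mitochondria for this removal, and it binds the LC3 and GABARAP proteins on the autophagosome membrane, of which Map1lc3b encodes LC3B. Ulk1 is the kinase that starts autophagosome formation, and Foxo3 is a forkhead transcription factor that drives antioxidant and maturation genes in mouse erythroblasts. Carbonic anhydrases, encoded by Car1 and Car2, convert carbon dioxide and water to bicarbonate. Bpgm makes the bisphosphoglycerate that lowers the oxygen affinity of haemoglobin, Aqp1 is a water channel of the red cell membrane, and Hemgn encodes hemogen, a nuclear protein of blood-forming cells. Btnl10 belongs to the butyrophilin-like family.

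RefSeq promoter sequences of build GRCm38.p6, which is not the mm8 build named in the submitters' processing notes, were matched for 7 of the 10 genes: Map1lc3b, Ulk1, Foxo3, Bpgm, Aqp1, Hemgn and Btnl10. Each covers 300 bases, the last 50 of them from the start site on. Those of Hemgn and Btnl10 are shown because their genes had the widest difference between the CD45 gates, and that of Map1lc3b because its gene had the narrowest. Capitals mark AGATAA or TGATAA, letters of the kind bound by GATA factors, on either strand, so that TTATCT is the same match read from the other strand. Coordinates are chr4:46404134-46404433 on the minus strand for Hemgn, chr11:58917658-58917957 on the plus strand for Btnl10 at the first of 2 listed starts, and chr8:121590188-121590487 on the plus strand for Map1lc3b.
Hemgn: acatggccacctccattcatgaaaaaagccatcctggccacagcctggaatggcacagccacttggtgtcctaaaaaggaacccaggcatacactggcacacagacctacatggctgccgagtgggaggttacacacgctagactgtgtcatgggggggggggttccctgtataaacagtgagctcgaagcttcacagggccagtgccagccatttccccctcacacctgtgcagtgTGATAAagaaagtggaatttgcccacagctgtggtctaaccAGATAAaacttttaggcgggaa
Btnl10: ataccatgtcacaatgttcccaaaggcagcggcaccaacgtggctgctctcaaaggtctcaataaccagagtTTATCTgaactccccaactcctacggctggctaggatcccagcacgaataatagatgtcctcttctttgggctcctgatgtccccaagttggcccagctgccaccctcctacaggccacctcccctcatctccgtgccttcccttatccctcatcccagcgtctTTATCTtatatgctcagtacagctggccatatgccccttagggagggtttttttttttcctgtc
Map1lc3b: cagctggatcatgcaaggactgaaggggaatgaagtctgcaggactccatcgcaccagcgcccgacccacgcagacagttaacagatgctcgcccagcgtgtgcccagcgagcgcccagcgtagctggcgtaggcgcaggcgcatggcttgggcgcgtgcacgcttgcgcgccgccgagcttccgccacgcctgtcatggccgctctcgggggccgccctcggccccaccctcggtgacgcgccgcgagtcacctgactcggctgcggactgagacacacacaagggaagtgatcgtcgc
Hemgn held 2 matches. Btnl10 held 2 at its first listed start and 1 at its second, and none was found in these windows of the other 5 genes. Of 32851 RefSeq promoters of the same length, with every listed start counted, 18.6% held at least 1 match and 3.23% held 2 or more. Matches to CCACCC or CACACCC, on either strand, were present for Map1lc3b (1), Ulk1 (2), Aqp1 (2) and Btnl10 (1), against 36.5% of all promoters, and GTAAACA, the letters of forkhead factors, matched in none of the 7, against 3.65% of all promoters. These matches describe the letters and were not tested as binding sites.

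Each level given here is 2 to the power of the deposited log2 value. No source used here names the scale behind it, so levels are compared between libraries for 1 gene and not between genes. Summed values ran from 227961 to 349261 per library, and read depth is unknown. All 11 erythroid markers had values in every group, and their summed level ran from 3133 to 37849 in the 9 CD45+ libraries, from 30294 to 168119 in the 9 CD45- libraries and from 128 to 1433 in MDSC. Haemoglobin genes took between 1.29% and 14.9% of the summed value in CD45+ libraries, between 11.2% and 46.2% in CD45- libraries and at most 0.486% in MDSC. The 5 leukocyte sort markers, Ptprc of CD45 and Itgam of CD11b among them, summed to between 222 and 550.3 in CD45+ libraries, to at most 5.78 in CD45- libraries and to between 467 and 698 in MDSC. Replicate 3 held the lowest haemoglobin share in 7 of 7 groups. It was also the lowest library in 44 of the 70 sets that pair a gene with a group. In anemia CD45+ cells and in anemia CD45- cells it was the lowest for 9 of the 10 genes. The count was 8 in neonatal CD45+ cells and in MDSC, 4 in each tumor gate and 2 in neonatal CD45- cells. How often replicate 3 was the lowest library among all tested genes was not counted. Its summed value was also the lowest of its group, except in neonatal CD45+ cells and in MDSC.

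**Figure D1:**
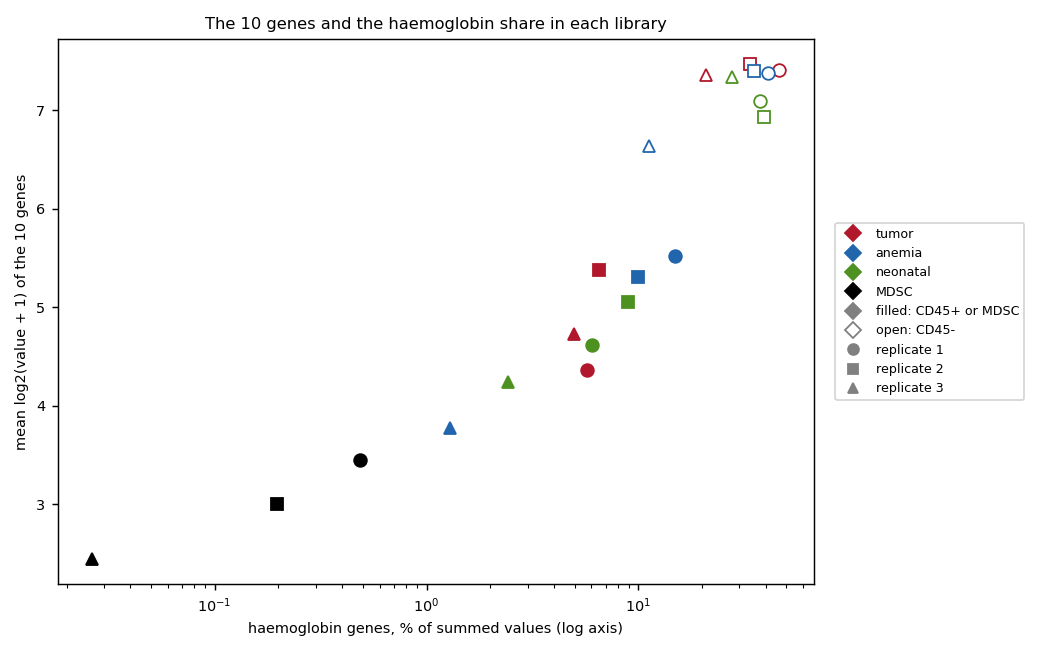
Mean log2(value + 1) of the 10 genes against the haemoglobin share of the summed value, in percent on a log axis, in each library. Groups differ in colour and fill, with symbols for replicates 1 to 3. Replicate 3 has the lowest haemoglobin share in 7 of 7 groups. The Ter119+CD71+ library with the lowest share is anemia CD45+ replicate 3 at 1.29%.

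The 10 genes were lower in CD45+ than in CD45- cells in all 3 states. In tumor-bearing mice all 10 fell in CD45+ cells at an adjusted p below 0.05 (limma on log2(value + 1), adjusted by the Benjamini-Hochberg method over 11195 genes), where 10.9% of the tested genes did so. In mice with anemia 9 of 10 fell, against a background of 11.3%, and in neonates 9 of 10, against 10.3%. None was higher in CD45+ cells in any state, while 50.2%, 47.4% and 49.6% of the tested genes were higher in tumor, anemia and neonatal mice. The median log2 fold change of the 10 genes was -2.24 in tumor, -2.22 in anemia and -2.62 in neonatal mice, against a median over all tested genes of 0.75, 0.68 and 0.75. CD45+ libraries all lay under CD45- libraries for 9, 8 and 10 of the genes, as they did for 12.5%, 13.5% and 12% of the tested genes. In bulk libraries such as these, fewer cells of a type and less RNA per cell cannot be told apart.

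**Figure D2:**
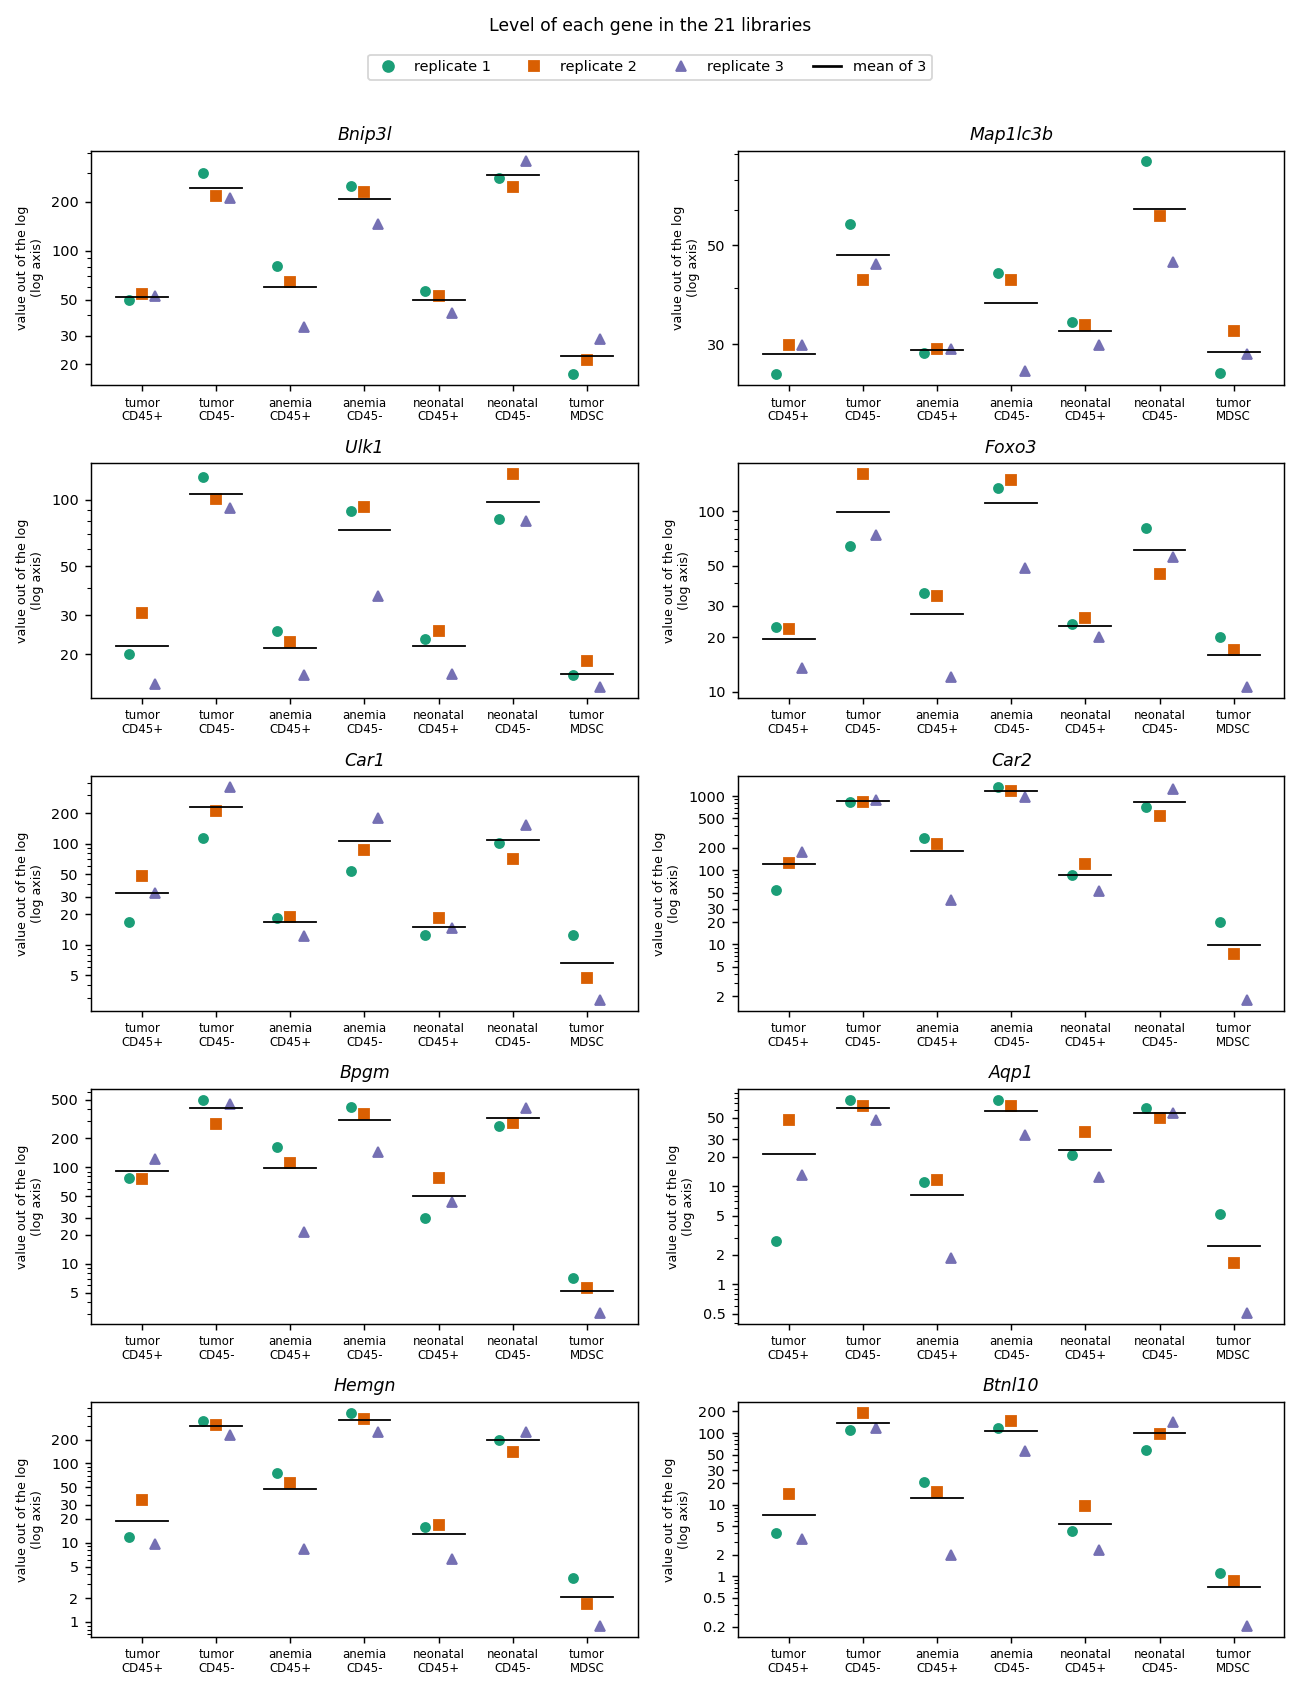
Level of each of the 10 genes (deposited value out of the log, log axis) in the 21 libraries, with a bar at the mean of the 3 libraries. CD45+ means lie below the CD45- means of the same state in every panel, and the separation is widest for Hemgn and Btnl10 and narrowest for Map1lc3b.

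Among the clearance genes, Bnip3l, the mitochondrial receptor, was at 49.9, 54.0 and 52.8 in tumor CD45+ cells, against 302, 216 and 211 in tumor CD45- cells. It was at 80.4, 64.7 and 34.1 in anemia CD45+ cells against 251, 228 and 146 in anemia CD45- cells, and at 56.4, 52.5 and 41.2 in neonatal CD45+ cells against 281, 247 and 356 in neonatal CD45- cells. The groups did not overlap in any state, and the tumor CD45+ libraries lay close together. The log2 fold changes were -2.18 ± 0.31 in tumor (SE, n = 3 each, limma adjusted p = 1.24e-05), -1.83 ± 0.31 in anemia (7.68e-05) and -2.53 ± 0.31 in neonates (2.85e-06). Each SE given with a fold change comes from a spread per gene that all groups of the fit share.

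Ulk1, the initiating kinase, was at 20.1, 30.7 and 14.6 in tumor CD45+ cells, against 127, 100.4 and 91.5 in tumor CD45- cells. In anemia it was at 25.4, 22.7 and 16.03 in CD45+ cells, against 88.7, 92.6 and 36.8 in CD45- cells, and in neonates at 23.4, 25.4 and 16.3 in CD45+ cells, against 81.5, 131 and 80.3 in CD45- cells. No CD45+ library reached the lowest CD45- library of its state. The falls were -2.28 ± 0.35, -1.63 ± 0.35 and -2.10 ± 0.35 on the log2 scale in tumor, anemia and neonatal mice (limma adjusted p = 3.39e-05, 0.000812 and 8.32e-05).

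Foxo3, the transcription factor, was at 23.0, 22.3 and 13.6 in tumor CD45+ cells, against 64.1, 161 and 74.3 in tumor CD45- cells. It was at 35.2, 33.7 and 12.0 in anemia CD45+ cells against 134, 149.9 and 48.7 in anemia CD45- cells, and at 23.6, 25.6 and 20.01 in neonatal CD45+ cells against 81.1, 44.9 and 56.1 in neonatal CD45- cells. The CD45- libraries were spread widely, and the groups still did not overlap in any state. The log2 fold changes were -2.20 ± 0.46 in tumor (limma adjusted p = 0.000573), -1.98 ± 0.46 in anemia (0.0014) and -1.32 ± 0.46 in neonates (0.0202). The neonatal fall no longer passed without neonatal CD45+ replicate 3 (adjusted p = 0.0612) or neonatal CD45- replicate 1 (0.0853).

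Map1lc3b, which encodes LC3B, moved least of the 10. It was at 25.7, 29.9 and 29.8 in tumor CD45+ cells, against 55.6, 41.7 and 45.4 in tumor CD45- cells. In anemia it was at 28.6, 29.2 and 29.3 in CD45+ cells, against 43.4, 41.7 and 26.1 in CD45- cells, where the third CD45- library lay below all 3 CD45+ libraries. In neonates it was at 33.6, 33.0 and 29.9 in CD45+ cells, against 77.0, 58.1 and 45.7 in CD45- cells. It fell by 0.71 ± 0.24 on the log2 scale in tumor (limma adjusted p = 0.0157) and by 0.86 ± 0.24 in neonates (0.00529), and the anemia value of -0.31 ± 0.24 did not pass (0.283, 95% interval -0.81 to 0.20). The tumor fall no longer passed without tumor CD45+ replicate 1 (0.0555) or tumor CD45- replicate 1 (0.0696), and the anemia value passed without anemia CD45- replicate 3 (-0.53, 0.0461).

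**Figure D3:**
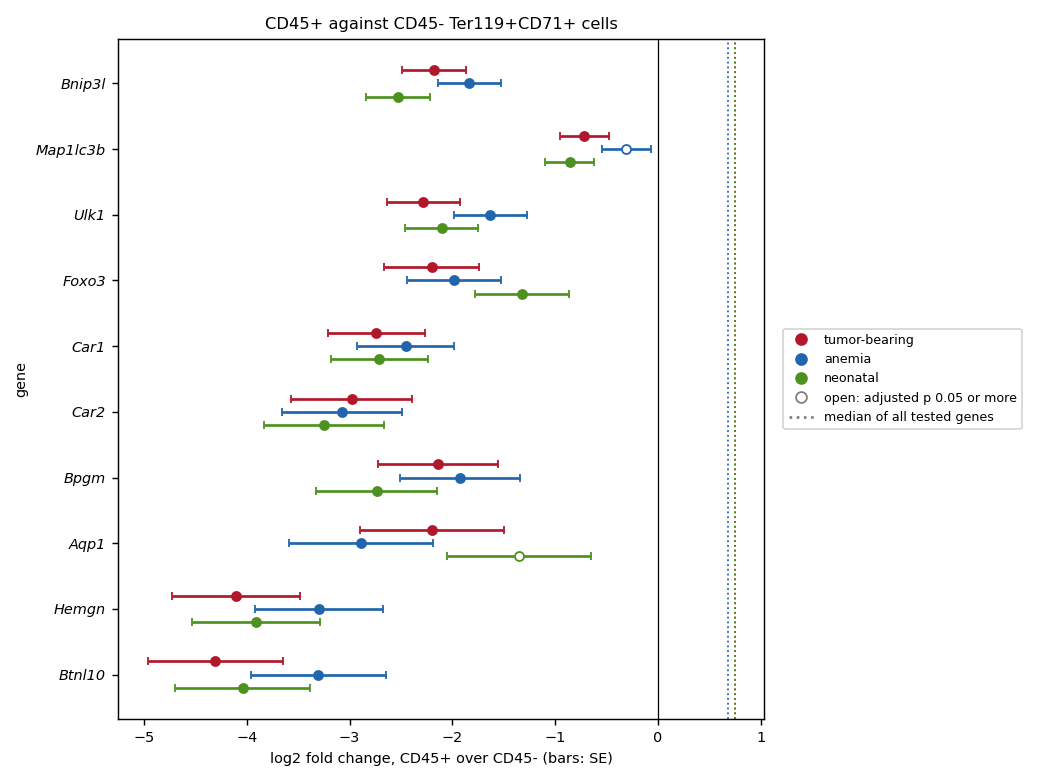
Log2 fold change, CD45+ over CD45- cells, of each gene in tumor-bearing mice, mice with anemia and neonates, with bars of 1 standard error. Dotted lines mark the median of all tested genes, and open points, Map1lc3b in anemia and Aqp1 in neonates, did not pass an adjusted p of 0.05.

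Hemgn, the nuclear protein hemogen, and Btnl10 had the largest falls. Hemgn was at 11.7, 34.6 and 9.60 in tumor CD45+ cells, against 340.2, 307 and 231 in tumor CD45- cells, at 76.7, 56.6 and 8.44 in anemia CD45+ cells, against 435, 368 and 248 in anemia CD45- cells, and at 15.8, 16.5 and 6.15 in neonatal CD45+ cells, against 199, 141 and 252 in neonatal CD45- cells. The CD45+ mean was 6.37%, 13.5% and 6.49% of the CD45- mean in tumor, anemia and neonatal mice. The log2 fold changes were -4.10 ± 0.62, -3.30 ± 0.62 and -3.91 ± 0.62 (limma adjusted p = 2.63e-05, 0.000238 and 4.67e-05).

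Btnl10 was at 4.07, 14.2 and 3.27 in tumor CD45+ cells, against 112, 191 and 118 in tumor CD45- cells. It was at 20.6, 15.1 and 2.01 in anemia CD45+ cells against 118, 148 and 56.0 in anemia CD45- cells, and at 4.23, 9.51 and 2.35 in neonatal CD45+ cells against 57.9, 97.7 and 141 in neonatal CD45- cells. The highest CD45+ library of each state stayed well under its lowest CD45- library. Btnl10 fell by 4.31 ± 0.66 in tumor, 3.31 ± 0.66 in anemia and 4.04 ± 0.66 in neonates on the log2 scale (limma adjusted p = 2.74e-05, 0.000374 and 5.72e-05).

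The carbonic anhydrases Car1 and Car2 both fell in CD45+ cells. Car2 was at 54.5, 125 and 178.5 in tumor CD45+ cells, against 826, 842 and 889 in tumor CD45- cells, at 276, 226 and 39.2 in anemia CD45+ cells, against 1325, 1157 and 983 in anemia CD45- cells, and at 84.9, 119.7 and 52.0 in neonatal CD45+ cells, against 720.1, 533 and 1235 in neonatal CD45- cells. Its log2 fold changes were -2.98 ± 0.59, -3.07 ± 0.59 and -3.25 ± 0.59 in tumor, anemia and neonatal mice (limma adjusted p = 0.000326, 0.000257 and 0.000153). The falls were of like size in the 3 states, and no library of 1 gate reached the other.

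Car1 was at 16.9, 48.0 and 32.3 in tumor CD45+ cells, against 113.5, 209 and 363 in tumor CD45- cells. It was at 18.6, 19.0 and 12.4 in anemia CD45+ cells against 53.5, 85.7 and 181 in anemia CD45- cells, and at 12.4, 18.3 and 14.6 in neonatal CD45+ cells against 101, 70.9 and 153 in neonatal CD45- cells. In all 3 CD45- groups the third library, which had the lowest haemoglobin share, had the highest Car1. The log2 fold changes were -2.74 ± 0.47, -2.45 ± 0.47 and -2.71 ± 0.47 (limma adjusted p = 9.62e-05, 0.000287 and 0.000114). Car1 and Car2 lie near each other on mouse chromosome 3 with Car3 between them in RefSeq order, and of 14 other carbonic anhydrase genes listed 10 were found in the table by symbol, of which Car13 alone was high enough to be tested, at -0.12 ± 0.30 in tumor (adjusted p = 0.743).

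Bpgm, the bisphosphoglycerate enzyme, was at 77.7, 75.1 and 123 in tumor CD45+ cells, against 497, 278 and 454 in tumor CD45- cells. It was at 162, 110.2 and 21.2 in anemia CD45+ cells against 420.1, 358 and 145 in anemia CD45- cells, and at 29.7, 76.8 and 43.5 in neonatal CD45+ cells against 268, 287 and 406 in neonatal CD45- cells. Only in anemia did the groups overlap, by the first CD45+ and the third CD45- library. Bpgm fell by 2.14 ± 0.59, 1.93 ± 0.59 and 2.74 ± 0.59 on the log2 scale in tumor, anemia and neonatal mice (limma adjusted p = 0.00462, 0.00942 and 0.000722), and the anemia fall did not pass without anemia CD45+ replicate 3 (-1.06, 0.0683). Pgam1, a glycolytic mutase related to Bpgm, and Pgk1, the phosphoglycerate kinase of glycolysis, rose in tumor CD45+ cells by 3.96 ± 0.67 and 3.08 ± 0.46 on the log2 scale (adjusted p = 8.33e-05 and 1.98e-05).

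Aqp1, the water channel, was the most variable of the 10 among the tumor CD45+ libraries. It was at 2.79, 47.7 and 12.9 in tumor CD45+ cells, against 75.4, 66.4 and 47.7 in tumor CD45- cells, where the highest CD45+ library met the lowest CD45- library. In anemia it was at 11.04, 11.5 and 1.85 in CD45+ cells, against 75.9, 66.0 and 33.1 in CD45- cells. In neonates it was at 20.98, 36.0 and 12.5 in CD45+ cells, against 62.5, 50.1 and 55.7 in CD45- cells. Aqp1 fell by 2.20 ± 0.70 in tumor (limma adjusted p = 0.012) and by 2.89 ± 0.70 in anemia (0.00195) on the log2 scale, and the neonatal value of -1.35 ± 0.70 did not pass (0.104, 95% interval -2.83 to 0.13) although its libraries did not overlap. Without tumor CD45+ replicate 1 the tumor value was -1.28 with an adjusted p of 0.0892, and the neonatal value passed without tumor CD45+ replicate 1 (0.0451) or 2 (0.0472), which share in the spread of the fit. Of 11 other aquaporin genes listed 5 were found in the table by symbol, of which Aqp9 alone was high enough to be tested and also fell in tumor CD45+ cells, by 1.95 ± 0.59 (0.009).

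Leukocyte markers ran the other way. All 5 leukocyte sort markers, all 12 neutrophil granule markers and all 8 B cell markers rose in CD45+ cells of each state, together with 9, 10 and 8 of 10 T and NK cell markers and 10, 8 and 10 of 12 monocyte and macrophage markers in tumor, anemia and neonatal mice, where 50.2%, 47.4% and 49.6% of all tested genes were higher. After quantile normalization the risers were 5, 4 and 4 sort markers, 12, 10 and 12 neutrophil markers, 8, 8 and 7 B cell markers, 6, 10 and 3 T and NK cell markers and 5, 4 and 10 monocyte and macrophage markers. With median-ratio scaling they were 5, 4 and 5, then 12, 12 and 12, then 8, 8 and 8, then 7, 10 and 7, and 8, 5 and 10. Among all tested genes 5621, 5310 and 5554 were higher unscaled in tumor, anemia and neonatal mice. These numbers were 2617, 2647 and 2663 after quantile normalization and 3556, 3278 and 3303 with median-ratio scaling. Marco, a scavenger receptor of macrophages, had a log2 fold change of -0.15 (limma adjusted p = 0.753) in tumor under quantile normalization. Neutrophil granule markers summed to between 12005 and 30903 in tumor CD45+ cells, against 32.9 to 384 in tumor CD45- cells. They summed to between 511 and 2861 in anemia CD45+ cells against 9.39 to 14.9 in anemia CD45- cells, and to between 9882 and 12458 in neonatal CD45+ cells against 124 to 219 in neonatal CD45- cells. B cell markers summed to between 137 and 553, 776 and 936, and 100.1 and 343 in CD45+ cells of tumor, anemia and neonatal mice, against at most 3.07, 12.0 and 4.52 in their CD45- cells. None of the sort, neutrophil, B cell or T and NK cell markers was at 0 in all 3 libraries of any group. Many were under 1 in all 3 libraries of tumor, anemia and neonatal CD45- cells, however. These were 4, 4 and 4 of the 5 sort markers and 8, 2 and 6 of the 8 B cell markers. So were 9, 9 and 9 of the 10 T and NK cell markers and 1, 9 and 1 of the 12 neutrophil markers. All 11 erythroid markers fell with the 10 genes in each state, also with median-ratio scaling. After quantile normalization 8, 7 and 8 of them passed as lower in tumor, anemia and neonatal mice, and in tumor the haemoglobin genes Hbb-bs, Hba-a1 and Hba-a2 did not, at -0.30, -0.72 and -1.60 (limma adjusted p = 0.745, 0.461 and 0.121). Genes lower over the whole fit then numbered 3060, 2990 and 2808. They were 2852, 2812 and 2692 with median-ratio scaling and 1218, 1267 and 1156 unscaled. The part of these leukocyte markers in the falls was not tested.

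Other genes of the autophagy pathway were found on both sides of the tumor contrast, in which 50.2% of all tested genes were higher and 10.9% lower. Of 17 further initiation and nucleation genes, 5 rose and 5 fell in tumor CD45+ against tumor CD45- cells. Ulk2, the paralog of Ulk1, rose by 1.60 ± 0.28 on the log2 scale (limma adjusted p = 0.000128), as did Uvrag, a partner of the beclin lipid kinase complex, by 2.45 ± 0.34 (1.01e-05), and Pik3r4, a subunit of that complex, by 2.24 ± 0.38 (7.86e-05). Of 15 genes of the ATG8 family and its conjugation, 7 rose and 5 fell. Map1lc3a, a paralog of Map1lc3b, rose by 1.57 ± 0.26 (5.98e-05), and Atg16l2 rose by 3.49 ± 0.23 (1.71e-09). Of 13 tested autophagy receptors, 4 rose and 6 fell, with Bnip3, the paralog of Bnip3l, up by 1.93 ± 0.31 (4.4e-05) and Calcoco1 down at -2.11 ± 0.32 (2.56e-05). In tumor CD45- cells the mean level was 1.62 for Ulk2, 0.581 for Map1lc3a, 0.167 for Atg16l2 and 0.317 for Bnip3. These lie close to or under 1, the value used to filter genes. Of 11 lysosome and fusion genes, 6 rose and 1 fell, the risers including Tfeb, a transcription factor of lysosome genes, at 2.72 ± 0.28 (2.93e-07) and Lamp2, a lysosomal membrane protein, at 2.49 ± 0.31 (3.02e-06). Mean levels in tumor CD45- cells were 1.04 for Tfeb, also close to the filter value, and 10.7 for Lamp2.

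The medians of these lists in the tumor contrast were -0.26, 0.30, -0.51 and 0.62, against 0.75 for all tested genes. With median-ratio scaling, which brings the median of all genes to 0.06, 5 initiation genes were higher and 10 lower, 5 ATG8 genes higher and 6 lower, 4 receptors higher and 8 lower, and 5 lysosome genes higher and 2 lower. Of all tested genes 3556 were then higher and 2852 lower. With quantile normalization the rises of Ulk2, Map1lc3a and Bnip3 did not pass (adjusted p = 0.24, 0.521 and 0.0694), whereas each of the 10 genes was lower in tumor CD45+ cells under every scaling tried.

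Of 18 other FOXO family members and textbook targets, 10 rose and 5 fell in tumor CD45+ against tumor CD45- cells, with a median of 1.17, against 50.2% higher and 10.9% lower and a median of 0.75 for all tested genes. Foxo1 rose by 2.81 ± 0.21 on the log2 scale (limma adjusted p = 8.54e-09) and Foxo4 fell by 1.76 ± 0.42 (0.00153), both being paralogs of Foxo3. Their mean levels in tumor CD45- cells were 0.168 and 28.8. Klf2, a Krüppel-like factor and FOXO target of lymphocytes, rose by 6.07 ± 0.40 (1.67e-09), and Pik3ip1, an inhibitor of phosphoinositide 3-kinase, by 3.61 ± 0.30 (2.6e-08). In tumor CD45- cells the mean levels of Klf2 and Pik3ip1 were 0.449 and 0.372, under the filter value of 1. With median-ratio scaling 8 of the 18 were higher and 5 lower, and with quantile normalization 5 and 5. Of all tested genes 3556 were higher and 2852 lower with the first, and 2617 and 3060 with the second.

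Other terminal maturation genes moved with the 10. Of 18 such genes, 15 fell and 1 rose in tumor, 16 fell and 2 rose in anemia, and 15 fell and 1 rose in neonatal CD45+ against CD45- cells, with medians of -2.35, -2.23 and -2.51, where 10.9%, 11.3% and 10.3% of all tested genes fell. Gfi1b, a transcriptional repressor of erythroid cells, fell by 3.19 ± 0.47 in tumor on the log2 scale (limma adjusted p = 2.05e-05). Fbxo7, a ubiquitin ligase subunit, fell by 2.30 ± 0.29 (3.47e-06), Rb1, the retinoblastoma protein, by 1.87 ± 0.31 (6.88e-05) and Tspo2, an erythroid relative of the translocator protein, by 3.28 ± 0.60 (0.000175). The riser in tumor was Alox15, a lipoxygenase, at 1.07 ± 0.26 (0.00177), named after its value was seen, and it did not pass with quantile normalization (0.129). Its mean level in tumor CD45- cells was 0.0201.

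The states were then compared within each gate. None of the 10 genes passed in any of the 6 comparisons by limma, nor in the 3 interaction tests of whether the CD45 difference itself differed between states. Of all tested genes 10.7%, 6.61% and 20.3% passed in CD45+ cells for tumor against anemia, tumor against neonatal and anemia against neonatal mice, and 0.152%, 2.54% and 4.34% in CD45- cells. In the interactions of tumor minus anemia, tumor minus neonatal and anemia minus neonatal 2.2%, 1.08% and 6.93% passed. At an unadjusted p under 0.05, the counts in the same order were 0, 0 and 2 of the 10 genes in CD45+ cells, against 22.9%, 17% and 32% of all tested genes. They were 1, 0 and 1 in CD45- cells, against 7.63%, 11.5% and 16.9%, and 0, 0 and 0 in the interactions, against 15.2%, 9.56% and 19.3%. The 60 differences ran from -1.56 to 1.44 on the log2 scale, and their 95% intervals were between 1.005 wide, for Map1lc3b, and 2.96 wide, for Aqp1. A p that misses the threshold at 3 libraries a group does not show that the states were alike.

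**Figure D4:**
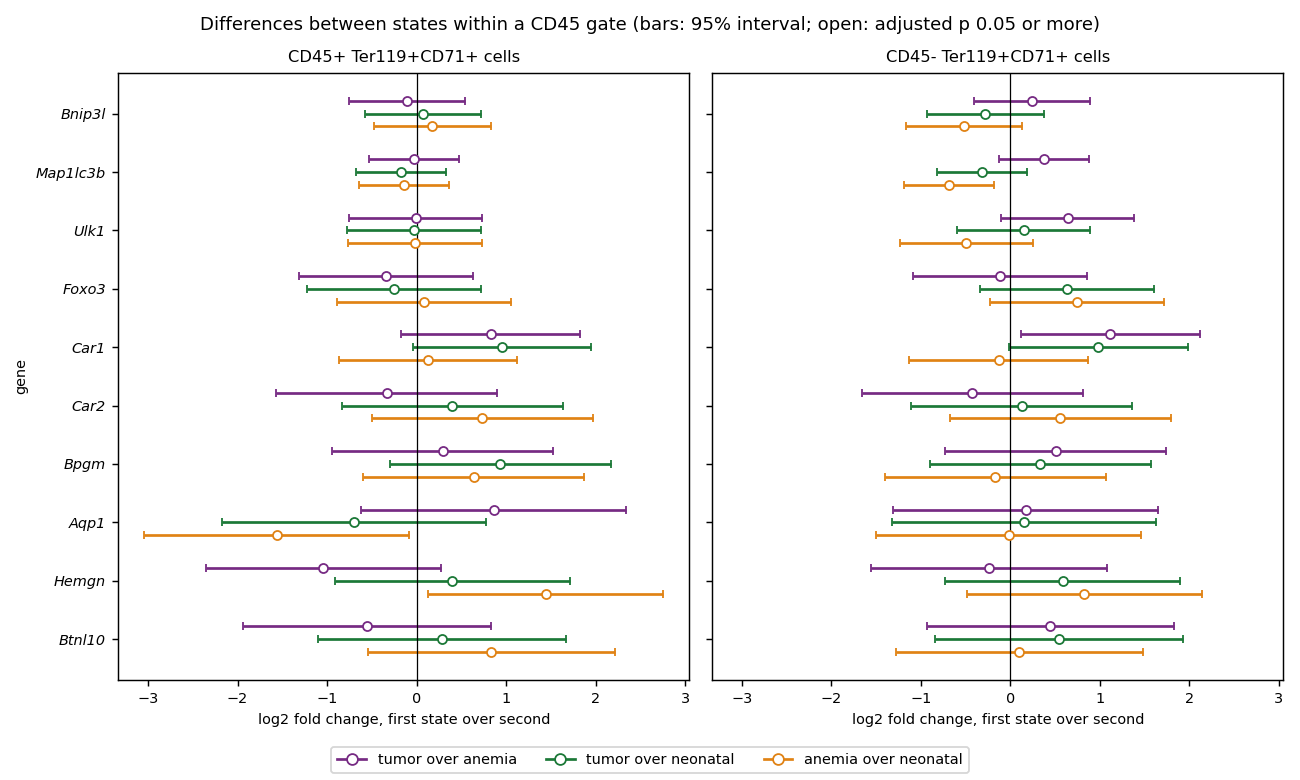
Log2 fold changes between states within the CD45+ gate (left) and the CD45- gate (right), first state over second, with 95% intervals. All 60 points are open, since none passed an adjusted p of 0.05, and they lie between -1.56 and 1.44.

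The 4 values with an unadjusted p under 0.05 were Aqp1 and Hemgn in anemia against neonatal CD45+ cells, at -1.56 ± 0.70 and 1.44 ± 0.62 on the log2 scale (limma adjusted p = 0.133 and 0.117), Car1 in tumor against anemia CD45- cells, at 1.12 ± 0.47 (0.563), and Map1lc3b in anemia against neonatal CD45- cells, at -0.69 ± 0.24 (0.126). Anemia CD45+ replicate 3 weighed on the comparisons among CD45+ cells. Without it Hemgn was lower in tumor than in anemia CD45+ cells by limma, at -1.99 (adjusted p = 0.0137), against -1.04 ± 0.62 with it (0.35), and 4.9% of all tested genes were lower. Without it 4 genes were higher in anemia than in neonatal CD45+ cells by limma: Hemgn at 2.39 (0.00218), Car2 at 1.61 (0.0198), Bpgm at 1.51 (0.0304) and Btnl10 at 1.71 (0.0453), against 1.44, 0.73, 0.64 and 0.84 with it, and 9.17% of all tested genes were higher. In that library Hemgn was at 8.44, Car2 at 39.2, Bpgm at 21.2 and Btnl10 at 2.01, beside a haemoglobin share of 1.29%. The part of the haemoglobin share in these values was not tested.

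Without the third library of every group, Hemgn and Car2 were lower in tumor than in anemia CD45+ cells, at -1.65 and -1.58 (limma adjusted p = 0.0116 and 0.00612). Hemgn, Bpgm and Car2 were higher in anemia than in neonatal CD45+ cells, at 1.96, 1.46 and 1.30 (0.0042, 0.0201 and 0.0141). In CD45- cells Map1lc3b was lower in anemia than in neonatal mice, at -0.64 (0.0318), and Foxo3 and Hemgn were higher, at 1.22 and 1.25 (0.0441 and 0.0489). The background in either direction was then 33%, 37.7% and 23.8% of the tested genes in these 3 comparisons. By direction, 17.4% of the tested genes were lower in the first and 17.7% higher in the second. In the third 15.2% were lower and 8.61% higher.

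In tumor-bearing mice the Ter119+CD71+ cells were also set against MDSC. All 10 genes were higher in tumor CD45- cells than in MDSC at an adjusted p below 0.05 (limma, 9 libraries, 10255 genes), where 14.3% of the tested genes were higher. In tumor CD45+ cells 6 were higher than in MDSC, where 5.42% of the tested genes were: Bnip3l, Car1, Car2, Bpgm, Hemgn and Btnl10. The median log2 fold change over MDSC was 4.69 for tumor CD45- cells and 2.13 in tumor CD45+ cells, against -0.56 and 0.16 for all tested genes. Every library lay above every MDSC library for 10 genes in tumor CD45- cells and for 6 in tumor CD45+ cells, as it did for 17.2% and 24.4% of the tested genes.

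Among the red cell genes, Bpgm was at 77.7, 75.1 and 123 in tumor CD45+ cells, against 7.06, 5.63 and 3.07 in MDSC. It was higher than in MDSC by 3.91 ± 0.33 in tumor CD45+ cells (limma adjusted p = 0.000499) and by 6.05 ± 0.33 in tumor CD45- cells (1.05e-07) on the log2 scale. Car2, at 54.5, 125 and 178.5 in tumor CD45+ cells against 20.1, 7.44 and 1.77 in MDSC, was higher by 3.77 ± 0.65 (0.00858), and by 6.75 ± 0.65 in tumor CD45- cells (9.51e-06). No library of either gate overlapped MDSC for these 2 enzymes.

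Hemgn was at 11.7, 34.6 and 9.60 in tumor CD45+ cells against 3.58, 1.71 and 0.892 in MDSC, higher by 2.56 ± 0.45 (limma adjusted p = 0.00834), and by 6.66 ± 0.45 in tumor CD45- cells (4.28e-07). Btnl10 was at 4.07, 14.2 and 3.27 in tumor CD45+ cells against 1.11, 0.85 and 0.204 in MDSC, higher by 2.04 ± 0.45 (0.0244), and by 6.35 ± 0.45 in tumor CD45- cells (5.85e-07). Neither gene's tumor CD45+ libraries overlapped those of MDSC. Bnip3l, the mitochondrial receptor, was at 49.9, 54.0 and 52.8 in tumor CD45+ cells against 17.4, 21.4 and 28.5 in MDSC, higher by 1.21 ± 0.24 (0.0155), and by 3.39 ± 0.24 in tumor CD45- cells (6.27e-07). Car1 was at 16.9, 48.0 and 32.3 in tumor CD45+ cells against 12.4, 4.65 and 2.85 in MDSC, higher by 2.21 ± 0.54 (0.0377), a call lost with the replicate number as a block (0.0542), with no filter on low values (0.0619) and after quantile normalization (0.0584). With median-ratio scaling Btnl10 (1.74, limma adjusted p = 0.055) and Bnip3l (0.89, 0.137) no longer passed, and Btnl10 was also lost after quantile normalization (0.0984).

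The other 4 genes did not pass between tumor CD45+ cells and MDSC. Ulk1 was at 20.1, 30.7 and 14.6 in tumor CD45+ cells against 16.02, 18.5 and 14.2 in MDSC, a difference of 0.35 ± 0.28 (limma adjusted p = 0.501, 95% interval -0.26 to 0.96). Foxo3 was at 23.0, 22.3 and 13.6 in tumor CD45+ cells against 20.1, 17.0 and 10.6 in MDSC, a difference of 0.29 ± 0.37 (0.694, -0.53 to 1.12). Map1lc3b was at 25.7, 29.9 and 29.8 in tumor CD45+ cells against 25.9, 32.1 and 28.5 in MDSC, a difference of -0.02 ± 0.21 (adjusted p = 0.975, -0.47 to 0.44). For these 3 clearance genes tumor CD45+ cells and MDSC overlapped, while tumor CD45- cells exceeded MDSC by 2.63 ± 0.28, 2.50 ± 0.37 and 0.70 ± 0.21 (1.22e-05, 0.000178 and 0.0138, the last of them 0.0603 without MDSC replicate 1). Aqp1 was at 2.79, 47.7 and 12.9 in tumor CD45+ cells against 5.20, 1.66 and 0.51 in MDSC, a difference of 2.23 ± 0.80 (0.138, 0.44 to 4.02) that passed without tumor CD45+ replicate 1 (3.16, 0.0251). The count of 6 changed when single libraries were left out. It was 3 without MDSC replicate 3, when Car1, Hemgn and Btnl10 no longer passed (limma adjusted p = 0.152, 0.0514 and 0.113). It was also 3 without MDSC replicate 2, when Bnip3l, Car1 and Btnl10 no longer passed (0.0694, 0.13 and 0.0694). Without the third library of every group it was 2, where 2.66% of all tested genes passed in either direction. The share of all genes that passed in the single-library refits is not given here. Bnip3l was also lost without tumor CD45+ replicate 2 (0.0535) or MDSC replicate 1 (0.0659), and Car1 without tumor CD45+ replicate 2 (0.116) or 3 (0.136) or tumor CD45- replicate 2 (0.0647). The last of these is in neither group and only shares in the spread of the fit, and Car1 stayed at 2.21 without it.

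**Figure D5:**
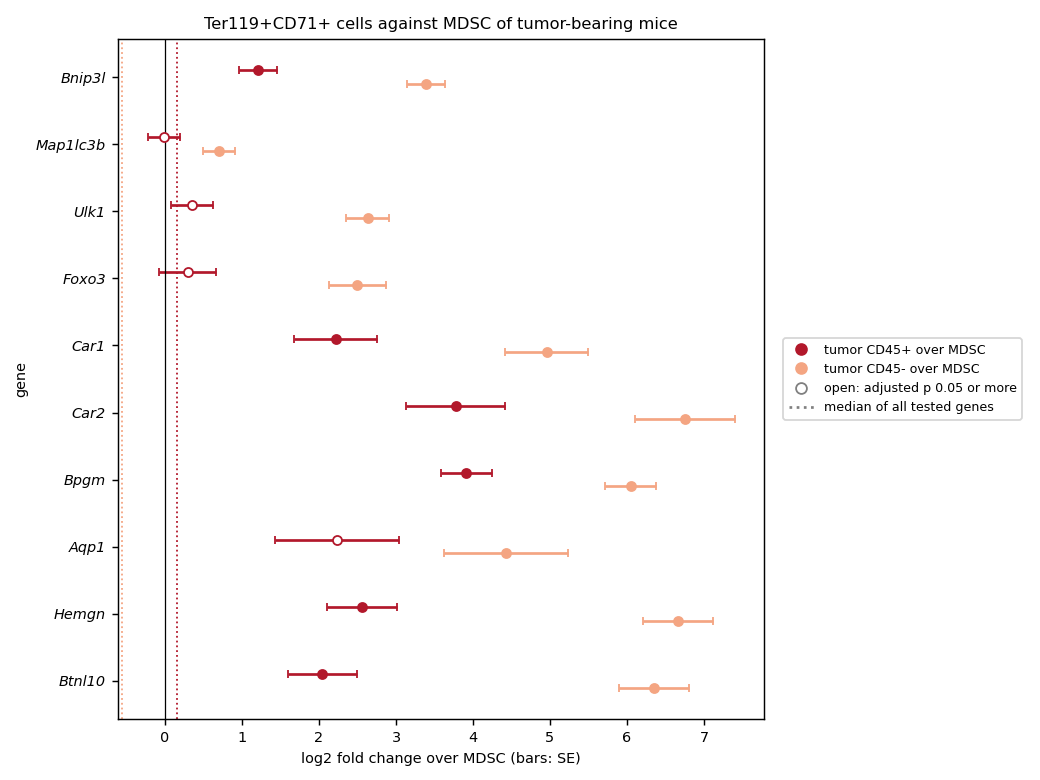
Log2 fold change of each gene over MDSC in tumor CD45+ cells and in tumor CD45- cells, with bars of 1 standard error and dotted lines at the medians of all tested genes. All 10 points of tumor CD45- cells are filled, having passed an adjusted p of 0.05, and those of Map1lc3b, Ulk1, Foxo3 and Aqp1 in tumor CD45+ cells are open.

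Ranked by mean over the 7 groups, each of the 10 genes had a CD45- group on top and all 3 CD45- groups above all 3 CD45+ groups. MDSC were lowest for 9 genes, and for Map1lc3b tumor CD45+ cells were lowest, at 28.5 ± 2.41 (SD, n = 3) against 28.8 ± 3.12 in MDSC. The order among the CD45- groups differed by gene. Neonatal cells led for Bnip3l and Map1lc3b, anemia cells for Foxo3, Car2 and Hemgn, and tumor cells for Ulk1, Car1, Bpgm, Aqp1 and Btnl10, with overlapping libraries between the first and the second group except for Car2. The lowest CD45- group overlapped the highest CD45+ group for Map1lc3b and Bpgm, and the lowest CD45+ group overlapped MDSC for Map1lc3b, Ulk1, Foxo3, Car1 and Aqp1. How often such orders and overlaps occur among all tested genes was not counted, so they describe the 10 genes only. From the lowest to the highest library the span was 1.55 log2 units for Map1lc3b, 4.28 for Bnip3l, 3.12 for Ulk1 and 3.80 for Foxo3, and between 5.67 (Aqp1) and 8.90 (Car2) for the other 6 genes.

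Likeness of pattern was measured as the root mean square difference between 2 genes in log2(value + 1), each centred on its own mean, over 21 libraries. Within the 10, Hemgn and Btnl10 were closest to each other at 0.48, as were Bnip3l and Ulk1 at 0.49, and Map1lc3b was farthest from Hemgn at 2.28. Among 11294 genes, the closest to both Hemgn and Btnl10 was Dmtn, which encodes the red cell membrane skeleton protein dematin, at 0.27 and 0.36. Ube2o, which encodes a ubiquitin ligase of reticulocytes, was closest to Bpgm at 0.33. Fryl was closest to Bnip3l at 0.24, Mmp21 to Map1lc3b at 0.23, Cep76 to Ulk1 at 0.31, Ehbp1l1 to Foxo3 at 0.33, Tmem56 to Car1 at 0.55 and Frmd4a to Aqp1 at 0.69. The median difference of all genes lay between 0.92, for Map1lc3b, and 2.85, for Hemgn. The points share libraries and the same split between gates, and the closeness is given as a description.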

How the data were processed

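RNA was sequenced from 21 libraries of sorted mouse spleen cells, and the extract protocol in the labels mentions retinas. Bowtie 0.12.2 and mm8 are named in the submitters' processing notes, with no role given. The authors deposited log2 values per gene on a scale not given in the sources used here; depth is unknown, and blanks (7.9% of cells) were taken as 0. Groups follow the labels. Values were taken out of the log, and limma 3.58.1 (R 4.3.3, statmod 1.5.0, trend and robust) was fitted two-sided to log2(value + 1) of genes at 1 or more in at least 3 libraries of the fit, 18 Ter119+CD71+ libraries or the 9 libraries of tumor-bearing mice. Adjustment was by Benjamini-Hochberg over every gene tested, at 0.05. The code was tested on simulated data. The genes, the other gene lists (198 entries, 185 in the table) and the tests were chosen with earlier results of these data known, and the promoter motifs after these files were read. Named genes were the 10, their paralogs, up to 4 passing genes of each list with the smallest adjusted p in the CD45 contrast of tumor-bearing mice, and the closest genes by pattern, of which 1 is not reported here. Same-numbered libraries deviated together, with every correlation over 0.1, in the 3 CD45 contrasts (lowest 0.109), tumor against neonatal CD45+ cells (0.107) and tumor CD45+ cells against MDSC (0.169), and not in the other 6 comparisons between groups. Alternatives were a pseudocount of 0.1, no filter, median-ratio scaling, quantile normalization, haemoglobin genes left out, the replicate number as a block, all 21 libraries in a fit, and each library left out. Leaving out replicate 3 of every group was added after the data were seen.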

Additional observations from a re-analysis of the deposited data

How the results depend on the processing

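Read depth is unknown, so precision rests on 3 libraries a group, with a spread per gene that all groups of a fit share. Of 140 values (10 genes in 14 comparisons), 44 passed and none of these changed sign under any alternative. Of the 96 that did not pass, 41 changed sign somewhere, in 111 refits, of which 0 passed (lowest adjusted p 0.17).

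Without each library in turn, the number of the 10 genes that passed ran from 8 to 10 in each CD45 contrast, from 9 to 10 for tumor CD45- cells against MDSC, from 3 to 7 for tumor CD45+ cells against MDSC, from 0 to 1 for tumor against anemia CD45+ cells and from 0 to 4 for anemia against neonatal CD45+ cells. It stayed at 0 in the other 4 state comparisons and the 3 interactions. Without replicate 3 of every group it was 2 for tumor CD45+ cells against MDSC (6 with it), where 2.66% of all tested genes passed. It was 2, 3 and 3 for tumor against anemia CD45+, anemia against neonatal CD45+ and anemia against neonatal CD45- cells (0 with it). Of all tested genes 33%, 37.7% and 23.8% passed in these 3 comparisons. Leaving out 7 libraries also leaves fewer samples. In tumor CD45+ cells against MDSC, Foxo3 was at -0.0059 with median-ratio scaling, and Map1lc3b at 0.18 with haemoglobin genes left out and between -0.089 and 0.061 without single libraries. Car2 in tumor against anemia CD45+ cells ran from -1.22 to 0.18 without single libraries. The cause was not tested.

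Scaling moved the share of calls that were higher in tumor CD45+ against CD45- cells, 82.2% unscaled, to 55.5% with median-ratio scaling, 46.1% with quantile normalization and 74.4% without haemoglobin genes, with medians over all genes of 0.75, 0.06, -0.08 and 0.53. In anemia the shares were 80.7%, 53.8%, 47% and 78%, and in neonates 82.8%, 55.1%, 48.7% and 77%. All 10 genes passed as lower in the tumor contrast under each. Genes called lower there over the whole fit numbered 1218 unscaled, 2852 with median-ratio scaling, 3060 with quantile normalization and 1613 without haemoglobin genes. With median-ratio scaling Map1lc3b in anemia (-1.17, adjusted p = 0.00763) and Aqp1 in neonates (-2.25, 0.0189) passed too, and in tumor CD45+ cells against MDSC Bnip3l (0.89, 0.137) and Btnl10 (1.74, 0.055) did not. Car1 in that comparison was also lost with no filter (0.0619) and after quantile normalization (0.0584), as was Btnl10 under quantile normalization (0.0984). The replicate block changed no call but that of Car1 (2.21, adjusted p = 0.0542). In the 6 comparisons whose numbers did not pair the libraries, the block left the counts of the 10 genes as they were.

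The share of all tested genes that passed moved by over 1.5 times as follows. For tumor against anemia CD45+ cells (10.7%) it was 6.46% with a pseudocount of 0.1. For tumor against anemia CD45- cells (0.152%) it was 0.328% with median-ratio scaling and 0.363% with all 21 libraries. For tumor against neonatal CD45- cells (2.54%) it was 6.32% with the pseudocount of 0.1, 4.07% with no filter and 4.35% with median-ratio scaling, and for anemia against neonatal CD45- cells (4.34%) 7.24% and 7.27% with the first and the last of these. For tumor CD45+ cells against MDSC (6.42%) it was 3.82% with quantile normalization and 9.82% with all 21 libraries. The interactions gave 0.545% with the pseudocount of 0.1 and 3.4% with all 21 libraries for tumor minus anemia (2.2%), 1.63% with no filter and 1.65% with median-ratio scaling for tumor minus neonatal (1.08%), and 3.12% with the pseudocount of 0.1 for anemia minus neonatal (6.93%). Without replicate 3 of every group the shares were 33%, 19% and 37.7% among CD45+ cells, 5.2%, 14% and 23.8% among CD45- cells, 2.66% against MDSC and 17.2%, 6.88% and 16.9% for the interactions, each in the order tumor and anemia, tumor and neonatal, anemia and neonatal.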
